A study of Mus musculus with 11 samples.

Results

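The genes described here are 9 receptors and ligands grouped under the binding and engulfment of shed photoreceptor outer segments by the retinal pigment epithelium (RPE). They are the TAM receptors Mertk, Axl and Tyro3, the TAM ligands Gas6 and Pros1, the integrin ligand Mfge8, the integrin subunits Itgav and Itgb5, and the scavenger receptor Cd36. They were chosen by name, and all 9 were present among the 14602 genes of the count table, with counts above 0 in every library.

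The RPE is the pigmented layer between the photoreceptors and the choroid, and each day it removes the spent tips of the outer segments. Phosphatidylserine exposed on these tips is bridged by Mfge8 to the αvβ5 integrin, the dimer of the Itgav and Itgb5 products, which tethers the tip to the RPE surface. Gas6 and protein S, the product of Pros1, bridge the same lipid to the kinase Mertk, which drives engulfment. Loss of Mertk leaves debris beneath the retina and leads to photoreceptor degeneration. Tyro3 and Axl are the other kinases of the TAM family, and Cd36 binds oxidised phospholipids and influences the rate of engulfment.

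Bulk RNA sequencing was performed on RPE/choroid of C57BL/6J mice, an inbred wild type strain. In the laser treated group (5 libraries), 9-month-old mice received the 2RT nanosecond laser, and tissue was collected 3 months later, at 12 months of age. In the naïve control group (6 libraries), mice of the same strain were left untreated and collected at 12 months. The laser was applied to 1 eye as small spots around the optic nerve head. The labels count 6 and 5 mice but tie no library to an animal, so p-values measure the spread between these libraries. Total counts were 25700881 to 36766020 in naïve control and 32094560 to 38755994 in laser treated libraries. Every transcript file carries a label, R1 (3 naïve control and 2 laser treated libraries) or R2 (3 and 3), whose meaning is not given in the sources used here.

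CPM below are counts relative to the TMM-adjusted library size. The tissue matched its label, since Rgr, an opsin of the RPE, had 62287 ± 9691 CPM in naïve control (SD, n = 6) and 59020 ± 12265 CPM in laser treated libraries (SD, n = 5). All 10 RPE markers were measured, with a summed level of 95969 to 134161 CPM in naïve control and 80320 to 131708 CPM in laser treated libraries; Best1, an RPE chloride channel, was at 0 in 3 libraries. The 10 photoreceptor markers were also present, at 5939 to 21519 CPM and 3923 to 19233 CPM in the groups, although the neural retina had been removed. In bulk tissue, fewer cells of a type cannot be told apart from less RNA per cell.

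On GRCm38 with the GENCODE M21 annotation, Mertk lies on chromosome 2 (128698956 to 128802894), as do Tyro3 (119797733 to 119818104) and Itgav (83724397 to 83806916). Axl (25757273 to 25788705) and Mfge8 (79133768 to 79149060) lie on chromosome 7, Pros1 (62854307 to 62929346) and Itgb5 (33829665 to 33949338) on chromosome 16, Gas6 on chromosome 8 (13465374 to 13494490) and Cd36 on chromosome 5 (17781690 to 17888801). Itgav shares 634 of its 10744 exon bases with Gm13684 on the opposite strand, and Gas6 shares 34 of 2548 with Tmem255b on the opposite strand. The kit does not mark strand, so reads in these stretches cannot be told apart, and the levels of Itgav and Gas6 carry that uncertainty.

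The 250 bases before the RefSeq start of 4 members are printed from the RefSeq table for GRCm38.p6, chosen because Itgb5 and Itgav are partners in 1 receptor with opposite signs of difference, Pros1 went against its class of base composition, and Mertk had a fold change near 0. No annotated exon overlaps these windows. Itgb5 is at chr16:33829415-33829664, Itgav at chr2:83724147-83724396, Pros1 at chr16:62854057-62854306 and Mertk at chr2:128698665-128698914, all on the plus strand. Capitals mark the GC box, the 6 letters GGGCGG or their reverse complement CCGCCC, which is the core of Sp-family binding sites.
Itgb5: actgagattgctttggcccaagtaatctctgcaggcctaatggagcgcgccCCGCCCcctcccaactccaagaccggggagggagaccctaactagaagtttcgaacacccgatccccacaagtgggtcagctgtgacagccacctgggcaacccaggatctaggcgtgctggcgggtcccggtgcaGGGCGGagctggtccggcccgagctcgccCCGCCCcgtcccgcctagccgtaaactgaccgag
Itgav: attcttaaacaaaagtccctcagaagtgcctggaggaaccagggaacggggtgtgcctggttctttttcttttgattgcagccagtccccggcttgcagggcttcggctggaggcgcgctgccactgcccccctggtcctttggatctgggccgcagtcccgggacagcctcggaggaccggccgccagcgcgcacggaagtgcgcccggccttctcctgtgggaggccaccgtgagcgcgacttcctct
Pros1: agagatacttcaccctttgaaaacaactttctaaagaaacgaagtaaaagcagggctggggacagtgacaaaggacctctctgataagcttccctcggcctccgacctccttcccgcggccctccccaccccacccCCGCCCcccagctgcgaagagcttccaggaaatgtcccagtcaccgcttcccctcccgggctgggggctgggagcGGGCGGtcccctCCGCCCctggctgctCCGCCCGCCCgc
Mertk: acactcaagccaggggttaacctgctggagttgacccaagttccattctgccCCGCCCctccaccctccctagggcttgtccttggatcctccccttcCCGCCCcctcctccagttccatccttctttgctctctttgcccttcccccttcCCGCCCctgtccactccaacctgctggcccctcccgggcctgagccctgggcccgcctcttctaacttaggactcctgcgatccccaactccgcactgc

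The GC box was found in the windows of 8 of the 9 members (all but Itgav) and in 32.7% of the 32851 promoters of the same length. The last base of the nearest GC box lay 3 bases before the start of Pros1, 29 bases before that of Itgb5 and 94 bases before that of Mertk. Other letters searched on both strands were the E-box CACGTG, found in 0 members and 6.02% of promoters, CCAAT, found in 1 member (Cd36) and 33.8% of promoters, and TATAAA, found in 0 members and 12.4% of promoters. The GC content of the windows of these 4 genes was 65.2% (Itgb5), 64.4% (Itgav), 64.4% (Pros1) and 63.6% (Mertk). A match is a description of these letters only.

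The comparison asks whether the machinery for taking up outer segments was expressed at another level 3 months after the laser. Itgb5, Pros1, Tyro3 and Gas6 were higher and Itgav was lower in laser treated tissue at an unadjusted p under 0.05, while Mertk was at the same mean level in both groups. None of the 9 members (0) passed an adjusted p of 0.05 in edgeR's quasi-likelihood test, where 0% of all 14602 genes did. At an unadjusted p under 0.05, 5 of the 9 members were called, where 15.9% of all genes were, and 4 of the 9 were called higher, where 8.24% of all genes were, and 1 lower, where 7.68% were. By DESeq2, 1 member (Itgb5) passed an adjusted p of 0.05, where 6.68% of 7512 genes with an adjusted p did. The log2 fold change was above 0 in 6 of the 9, where it was in 48.5% of all genes, and its median was 0.33, beside -0.02 over all genes. The groups overlapped in all 9 members (0 of 9 did not), where 2.26% of all genes had groups that did not overlap. Without naïve control library 6 and laser treated library 5, which earlier results of these data set apart, 1 of the 9 (Itgb5) had an unadjusted p under 0.05 (20.3% of all genes did) and 0 an adjusted p under 0.05 (2.67% of all genes did).

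**Figure D1:**
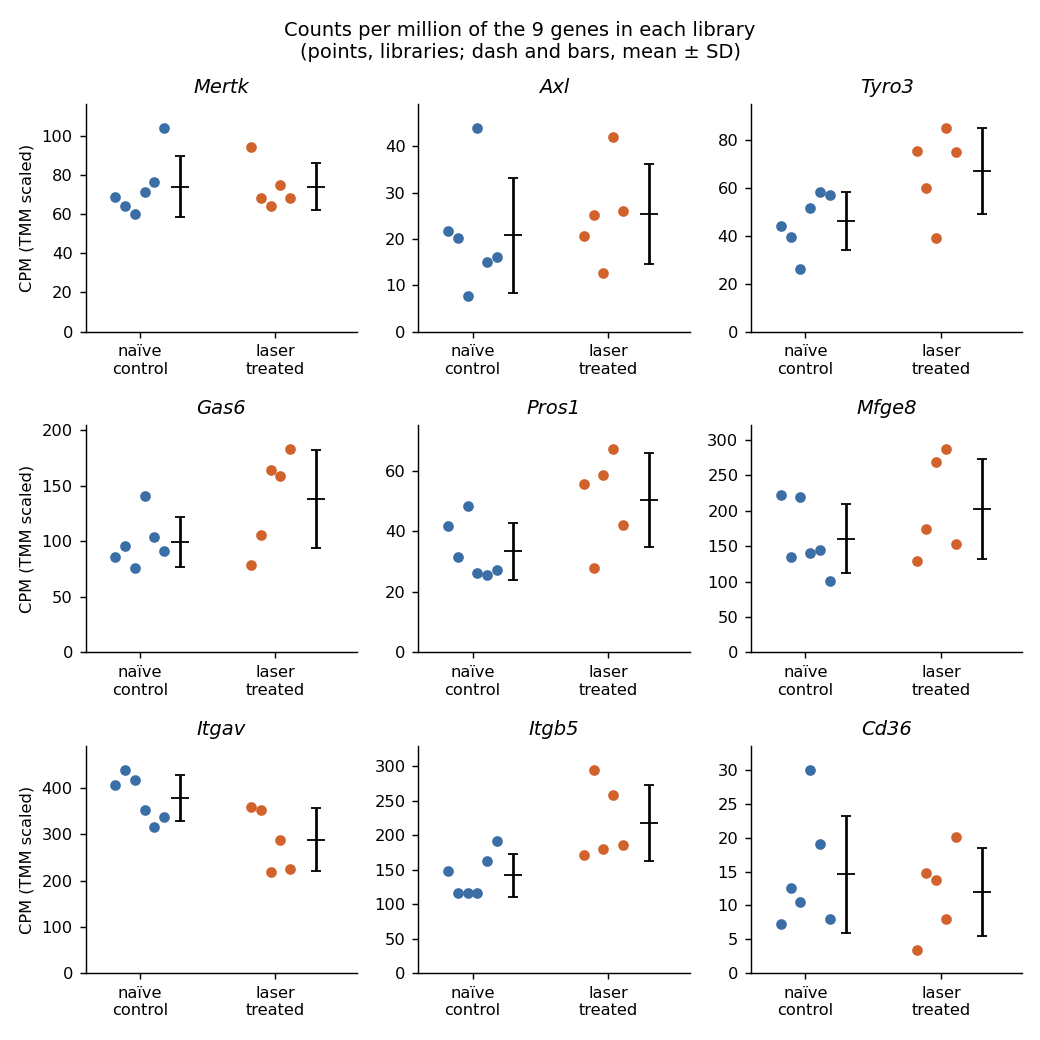
CPM (vertical axes, from 0, scaled by TMM) of each member in the 6 naïve control (blue) and 5 laser treated libraries (orange), 1 point per library, with the group mean ± SD as a dash and bars. The groups overlap in every panel; 4 of 5 laser treated libraries lie above all controls for Tyro3, and 3 of 5 lie below all controls for Itgav.

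The base composition of the transcripts moved with the groups. The level of GC-rich genes (at least 52% GC, 5514 genes) relative to GC-poor genes (under 45%, 3565 genes), taken as the difference of their median log2 CPM deviations from the mean of all libraries, was -0.56 to 0.01 in naïve control and 0.04 to 0.43 in laser treated libraries, and the groups did not overlap (difference 0.54, exact two-sided permutation test, p = 0.00433, n = 6 and 5). In the main fit, 18.2% of GC-rich genes were higher and 1.03% lower after laser at an unadjusted p under 0.05, and their median log2 fold change was 0.25, while 0.337% of GC-poor genes were higher and 19.5% lower and their median was -0.30. Of the members, Axl, Tyro3, Gas6, Mfge8 and Itgb5 were GC-rich, Pros1, Itgav and Cd36 were GC-poor, and Mertk (48.1%) lay between. With a loess trend on GC content removed from each library, 2 of the 9 members (Pros1 and Itgb5) had an unadjusted p under 0.05, where 8.33% of all genes did; both were higher (3.82% of all genes) and 0 were lower (4.51%). What sets the base composition of the libraries apart was not tested.

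**Figure D2:**
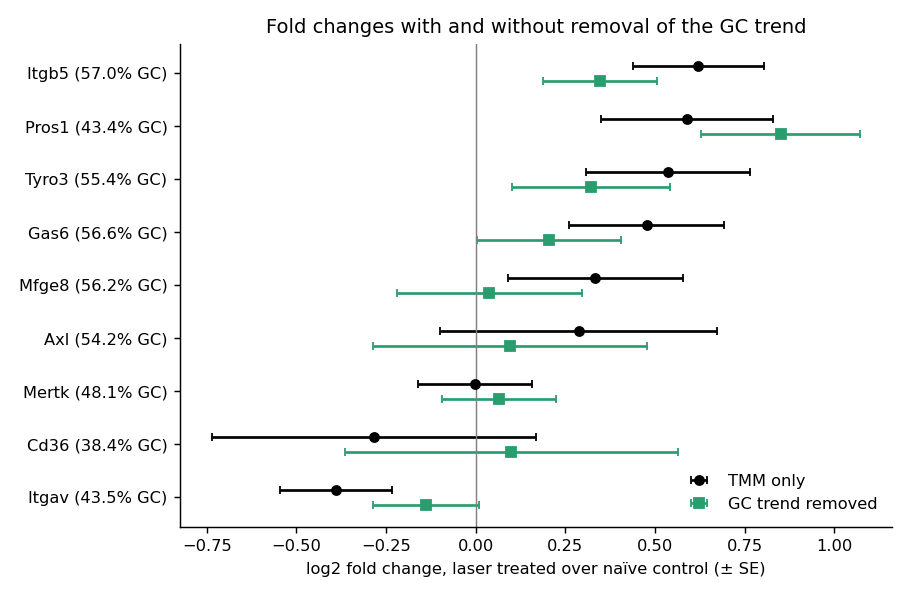
Log2 fold change of laser treated over naïve control ± SE (horizontal axis) for each member, with TMM scaling only (black circles) and after removal of the trend on GC content (green squares). The GC percentage of the longest transcript stands beside each name. Removal moved the GC-rich members toward 0, moved Pros1 from 0.59 to 0.85 and moved Itgav from -0.39 to -0.14.

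Among the receptors that signal engulfment, Mertk had the same mean level in both groups, 74.3 ± 15.7 CPM in naïve control and 74.2 ± 12.0 CPM in laser treated libraries. Its CPM were 68.8, 64.4, 60.2, 71.6, 76.4 and 104.2 in naïve control libraries 1 to 6 and 94.5, 68.3, 64.2, 75.2 and 68.6 in laser treated libraries 1 to 5. Naïve control library 6 was the highest of all 11, laser treated library 1 came next, and the other 9 libraries of both groups lay between 60.2 and 76.4 CPM. The log2 fold change was -0.00 with a standard error of 0.16 (unadjusted p = 0.990, adjusted p = 0.996, edgeR) and 0.15 (SE 0.15, adjusted p = 0.652) without naïve control library 6 and laser treated library 5. Within label R1 the difference of mean log2 CPM, which is not a fitted fold change, was 0.32. Within R2 it was -0.26, so its sign was not the same in both.

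Over the 11 libraries of both groups together, Mertk varied least of the members. Its coefficient of variation was 18.1%, and 12.3% of all genes varied less, while that of Itgav was 21.4%. Axl varied by 49.6% and Cd36 by 55.6%, with 67.7% and 72.6% of genes below them. Among the naïve control libraries alone, Itgav (13.1%) varied less than Mertk (21.1%). Among the laser treated libraries, Mertk (16.2%) varied less than Itgav (23.2%).

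Tyro3, a TAM kinase that binds protein S and Gas6, had 44.1, 39.7, 26.1, 51.8, 58.4 and 57.1 CPM in the naïve control and 75.6, 60.0, 39.1, 85.2 and 75.1 CPM in the laser treated libraries. Of the laser treated libraries, 4 of 5 lay above every control, and library 3 lay among the lowest controls. The mean was 46.2 ± 12.2 CPM (n = 6) in naïve control and 67.0 ± 17.99 CPM (n = 5) in laser treated tissue (SD), and the log2 fold change was 0.54 (SE 0.23, unadjusted p = 0.0352, adjusted p = 0.277, edgeR). Within R1 the difference of mean log2 CPM was 0.91 and within R2 it was 0.18. The log2 fold change was 0.32 with the GC trend removed (unadjusted p = 0.166, edgeR). The unadjusted p was above 0.05 without naïve control library 1, 2 or 3 or laser treated library 1, 4 or 5, each left out alone, with values from 0.0574 to 0.108 in edgeR. Without naïve control library 6 and laser treated library 5 together, the log2 fold change was 0.56 (unadjusted p = 0.0547, edgeR).

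Axl, the TAM kinase with Gas6 as its main ligand, ranged more widely within the groups than between them. In naïve control libraries it had a lowest, median and highest value of 7.65, 18.2 and 44.0 CPM, and the laser treated libraries had 20.6, 25.3, 12.7, 42.1 and 26.1 CPM. Library 4 was the highest in each group. Within R1 the difference of mean log2 CPM was 0.60 and within R2 it was 0.13. The log2 fold change was 0.29 (SE 0.39, adjusted p = 0.796, edgeR). Without laser treated library 4 it was 0.01, and without naïve control library 4 it was 0.64.

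Both TAM ligands were higher in laser treated tissue at the unadjusted threshold. Gas6 had 86.1, 96.1, 76.2, 141.2, 104.1 and 91.5 CPM in the naïve control libraries and 78.7, 105.6, 163.8, 159.0 and 183.1 CPM in the laser treated libraries. Laser treated libraries 3, 4 and 5 were above every control, and libraries 1 and 2 lay inside the control range. The mean ± SD was 99.2 ± 22.6 CPM over 6 naïve control and 138.1 ± 43.9 CPM over 5 laser treated libraries, and the log2 fold change was 0.48 (SE 0.22, unadjusted p = 0.0446, adjusted p = 0.302, edgeR). Within R1 the difference of mean log2 CPM was 0.09 and within R2 it was 0.61. The log2 fold change was 0.20 with the GC trend removed (unadjusted p = 0.327, edgeR). Left out alone, naïve control library 1, 2, 3, 5 or 6 or laser treated library 3, 4 or 5 took the unadjusted p above 0.05, to values from 0.0685 to 0.133 in edgeR. The log2 fold change was 0.33 (unadjusted p = 0.188, edgeR) without naïve control library 6 and laser treated library 5.

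Pros1, which encodes the anticoagulant and TAM ligand protein S, had 41.8, 31.7, 48.3, 26.3, 25.4 and 27.3 CPM in the naïve control libraries and 55.6, 28.0, 58.8, 67.2 and 42.3 CPM in the laser treated libraries. Laser treated libraries 1, 3 and 4 were above every control and library 2 lay with the lowest controls. The mean ± SD was 33.5 ± 9.4 CPM over 6 naïve control and 50.4 ± 15.4 CPM over 5 laser treated libraries, and the log2 fold change was 0.59 (SE 0.24, unadjusted p = 0.0281, adjusted p = 0.255, edgeR). The longest transcript of Pros1 is GC-poor (43.4%), and of the 3014 GC-poor genes with a mean count of at least 100, 12 were higher after laser at an unadjusted p under 0.05 and 679 were lower. Pros1 was 1 of these 12, and 98.7% of the class had a lower log2 fold change. With the GC trend removed, its log2 fold change was 0.85 (SE 0.22, unadjusted p = 0.00193, adjusted p = 0.507, edgeR). The difference of mean log2 CPM was -0.02 within R1 and 1.06 within R2. The unadjusted p was above 0.05 without naïve control library 4, 5 or 6 or laser treated library 1, 3 or 4, from 0.0575 to 0.0954 in edgeR, and was 0.0510 without naïve control library 6 and laser treated library 5 together. The log2 CPM of Pros1 had a Pearson r of -0.62 with the log2 of the summed RPE markers (permutation p = 0.0370, adjusted 0.278 over 90 relations). That r was -0.33 without the 2 libraries farthest from the median of the sum and -0.68 for deviations from the group means. With the summed photoreceptor markers r was 0.46 (permutation p = 0.154, adjusted 0.531), and 0.22 and 0.73 in these 2 ways. The part of these cells in Pros1 was not tested.

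Mfge8, the secreted bridge from phosphatidylserine to αvβ5, had 222.7, 135.4, 218.8, 140.4, 144.8 and 101.5 CPM in naïve control and 129.3, 174.1, 268.4, 287.2 and 153.0 CPM in laser treated libraries. Naïve control libraries 1 and 3 and laser treated libraries 3 and 4 were the highest of their groups, and the same libraries had the highest summed photoreceptor markers, 17951, 21519, 18421 and 19233 CPM, where the other 7 had 3923 to 10169 CPM. The log2 fold change of Mfge8 was 0.33 (SE 0.25, adjusted p = 0.563, edgeR). Within R1 its difference of mean log2 CPM was -0.32 and within R2 it was 0.84. Over the 11 libraries its log2 CPM had a Pearson r of 0.79 with the log2 of that sum (permutation p = 0.00530, adjusted 0.0841 over 90 relations) and a Spearman rho of 0.64 (permutation p = 0.0408, adjusted 0.367). The r was 0.71 without the 2 libraries farthest from the median of the sum and 0.95 for deviations from the group means. Mfge8 moved the other way with the summed RPE markers, with an r of -0.81 (permutation p = 0.00225, adjusted 0.0630) and a rho of -0.85 (permutation p = 0.00172, adjusted 0.0709). That r was -0.62 without the 2 farthest libraries, -0.88 among the 6 libraries of R2 and -0.82 for deviations from the group means. The part of photoreceptor RNA and of RPE RNA in the level of Mfge8 was not tested.

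The integrin subunits differed in opposite directions. Itgb5, the β5 subunit, had 149.0, 116.8, 115.9, 116.6, 162.4 and 191.8 CPM in naïve control and 171.5, 295.0, 180.1, 259.3 and 186.4 CPM in laser treated libraries. All 5 laser treated libraries were above the control mean, and 2 of 5 were above the highest control, library 6. The mean ± SD was 142.1 ± 31.3 CPM over 6 naïve control and 218.4 ± 55.3 CPM over 5 laser treated libraries, a 1.54-fold difference, and the log2 fold change was 0.62 (SE 0.18, unadjusted p = 0.00447, adjusted p = 0.177, edgeR). By DESeq2 its adjusted p was 0.0345, and over all 24 alternatives its adjusted p ran from 0.0345 to 0.593. The difference of mean log2 CPM was 0.83 within R1 and 0.42 within R2. Without naïve control library 6 and laser treated library 5, the log2 fold change was 0.78 (unadjusted p = 0.00141, adjusted p = 0.0508, edgeR). With the GC trend removed it was 0.35 (unadjusted p = 0.0470, adjusted p = 0.593, edgeR). In its class of GC-rich genes with a mean count of at least 100, 89.5% of 4326 genes had a lower log2 fold change and 986 were higher at an unadjusted p under 0.05.

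Itgav, the αv subunit shared by several integrins, had 406.9, 438.9, 417.7, 352.8, 316.7 and 336.6 CPM in naïve control and 359.7, 352.0, 218.3, 287.5 and 225.8 CPM in laser treated libraries. No laser treated library (0 of 5) was above the control mean, and libraries 3, 4 and 5 were below every control. The mean ± SD was 378.3 ± 49.4 CPM over 6 naïve control and 288.7 ± 67.0 CPM over 5 laser treated libraries, and the log2 fold change was -0.39 (SE 0.16, unadjusted p = 0.0254, adjusted p = 0.248, edgeR). Within R1 the difference of mean log2 CPM was -0.24 and within R2 it was -0.47. With the GC trend removed the log2 fold change was -0.14 (unadjusted p = 0.361, edgeR). In the main fit, 37.8% of its class of GC-poor genes had a still lower log2 fold change. Without naïve control library 2 the unadjusted p was 0.0563, and without laser treated library 3 or 5 it was 0.0723 or 0.0688 in edgeR. It was 0.0587 without naïve control library 6 and laser treated library 5 together.

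The ratio of Itgb5 to Itgav counts within a library does not depend on how libraries are scaled. It was 0.366, 0.266, 0.277, 0.330, 0.513 and 0.570 in naïve control libraries 1 to 6 and 0.477, 0.838, 0.825, 0.902 and 0.826 in laser treated libraries 1 to 5. In the laser treated group, 4 of 5 libraries lay above every control and library 1 lay inside the control range. The geometric mean ratio was 2.03-fold higher after laser (log2 difference 1.02, exact permutation test, two-sided, with 462 splits, p = 0.0130, where the smallest p this design allows is 0.00216; adjusted p = 0.0519 over the 4 ratios tested). Within R1 and R2 the log2 difference was of the same sign. That difference was 1.70 with the TPM of the transcript files, summed over transcripts of any length, in place of counts. With TPM weighted by covered bases instead, fewer laser treated libraries lay above every control. Naïve control library 5 had the highest weighted ratio of its group, with 16.1 TPM of Itgb5 and 11.97 TPM of Itgav. Of the laser treated libraries, only library 2 exceeded it, with 43.5 and 24.2 TPM. The weighted ratio was not tested.

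The ratio of Itgb5 to Itgav counts also followed the GC balance of the libraries. Over the 11 libraries, its log2 had a Pearson r of 0.94 with the level of GC-rich relative to GC-poor genes (permutation p = 7.0e-05, adjusted 0.00091 over 13 relations) and a Spearman rho of 0.91 (permutation p = 0.00029, adjusted 0.00377). The r was 0.93 without the 2 libraries farthest from the median balance, 0.92 among the 6 libraries of R2 and 0.83 for deviations from the group means, so it held inside the groups as well as between them. Itgb5 is GC-rich (57.0%) and Itgav GC-poor (43.5%), so the ratio follows the balance wherever both genes follow their classes. The p of this relation is therefore no result about the integrin. How many other pairs of a GC-rich and a GC-poor gene have such an r was not counted. Itgb5 alone had an r of 0.88 and a rho of 0.88 (permutation p = 0.00028 and 0.00062, adjusted 0.00182 and 0.00403; r 0.82 without the 2 farthest libraries). These were the 2 of 13 relations with an adjusted p under 0.05. Pros1 had an r of 0.27 and a rho of 0.32 (permutation p = 0.414 and 0.344, adjusted 0.592 and 0.497; r 0.73 without the 2 farthest libraries, 0.95 among the 6 libraries of R2 and -0.56 for deviations from the group means). The part of the GC balance in the Itgb5 and Itgav differences cannot be told apart from that of the laser between the groups, since the balance did not overlap between them.

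**Figure D3:**
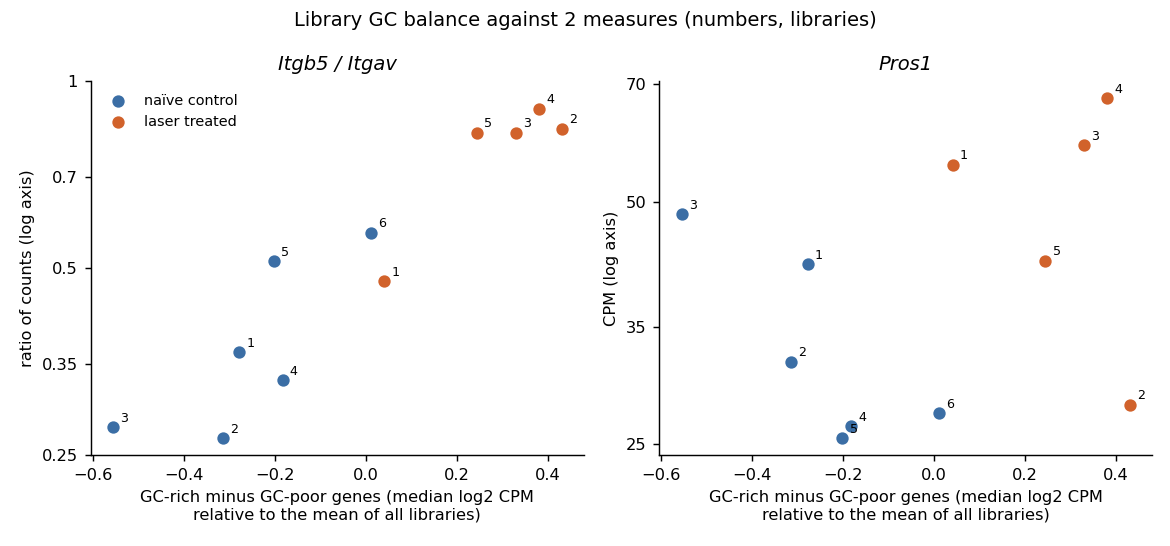
Ratio of Itgb5 to Itgav counts (left, log axis) and CPM of Pros1 (right, log axis) against the median log2 CPM of GC-rich minus GC-poor genes relative to the mean of all libraries; points are naïve control (blue) and laser treated libraries (orange), numbered. The ratio climbs with the balance from 0.266 to 0.902 across both groups, while Pros1 shows 28.0 CPM in laser treated library 2, where the balance is highest (0.43), and 48.3 CPM in naïve control library 3, where it is lowest (-0.56).

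The other ratios between partners were tested in the same way. Mertk counts over Tyro3 counts were 1.31 to 2.30 in naïve control and 0.883 to 1.64 in laser treated libraries, and 4 of 5 laser treated libraries were below every control (log2 difference -0.53, exact permutation p = 0.0346, adjusted p = 0.0693). The p was above 0.05 without naïve control library 2, 3 or 6 or laser treated library 4 or 5, from 0.0556 to 0.0667 by the exact test. Over the 11 libraries, the log2 of this ratio had a Pearson r of -0.70 with the GC balance (permutation p = 0.0169, adjusted 0.0551 over 13 relations). The rho was -0.64 (permutation p = 0.0409, adjusted 0.0885), and r was -0.53 without the 2 farthest libraries and -0.33 for deviations from the group means. The part of the GC balance in this ratio was not tested. Mertk over Axl was 1.63 to 7.86 in naïve control and 1.79 to 5.05 in laser treated libraries (log2 difference -0.37, exact permutation p = 0.420, adjusted p = 0.560). Gas6 over Pros1 was 1.58 to 5.36 and 1.42 to 4.33 (log2 difference -0.13, exact permutation p = 0.738, adjusted p = 0.738), so the balance of the TAM ligands varied by more than 3-fold inside each group and did not separate the groups.

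Cd36, a scavenger receptor that also takes up fatty acids, was the member with the lowest level per length and the widest spread. It had 7.30, 12.6, 10.5, 29.95, 19.1 and 8.1 CPM in naïve control and 3.46, 14.8, 13.7, 7.9 and 20.05 CPM in laser treated libraries. Neither group lay to one side of the other. The log2 fold change was -0.28 (SE 0.45, adjusted p = 0.834, edgeR) and was 0.05 without naïve control library 4, the highest library. Within R1 the difference of mean log2 CPM was -0.47 and within R2 it was -0.36. Without naïve control library 6 and laser treated library 5, the log2 fold change was -0.67 (SE 0.49, adjusted p = 0.496, edgeR). The log2 CPM of Cd36 had an r of 0.79 with the summed melanocyte markers (permutation p = 0.00280, adjusted 0.0630). Its rho was 0.82 (permutation p = 0.00315, adjusted 0.0709), and r was 0.68 without the 2 farthest libraries. The part of these cells in Cd36 was not tested.

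Levels were compared between the genes as CPM per kilobase of exon (RPKM). The integrin subunit Itgb5 and the secreted ligands Gas6 and Mfge8 led, with 49.8 ± 16.2, 45.9 ± 14.9 and 38.3 ± 12.9 RPKM (mean ± SD over all 11 libraries), followed by Itgav with 31.4 ± 6.7 and Mertk with 17.1 ± 3.1. Pros1 had 10.1 ± 3.6, Tyro3 8.98 ± 2.90, Axl 4.54 ± 2.25 and Cd36 3.73 ± 2.08 RPKM. Of neighbours in this order, Itgav was above Mertk in 11 of 11 libraries, Mertk above Pros1 in 11 of 11 and Tyro3 above Axl in 10 of 11. The other neighbours changed places between libraries: Itgb5 was above Gas6 in 7 of 11, Gas6 above Mfge8 in 9, Mfge8 above Itgav in 7, Pros1 above Tyro3 in 6 and Axl above Cd36 in 7. Mertk was thus the TAM receptor with the highest level, and its RPKM exceeded that of 81.7% of all genes with a known exon length. Where levels were taken from the assembled transcripts instead, weighted by their covered bases, Itgav came first and Itgb5 second, and Mertk kept its place in the order.

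**Figure D4:**
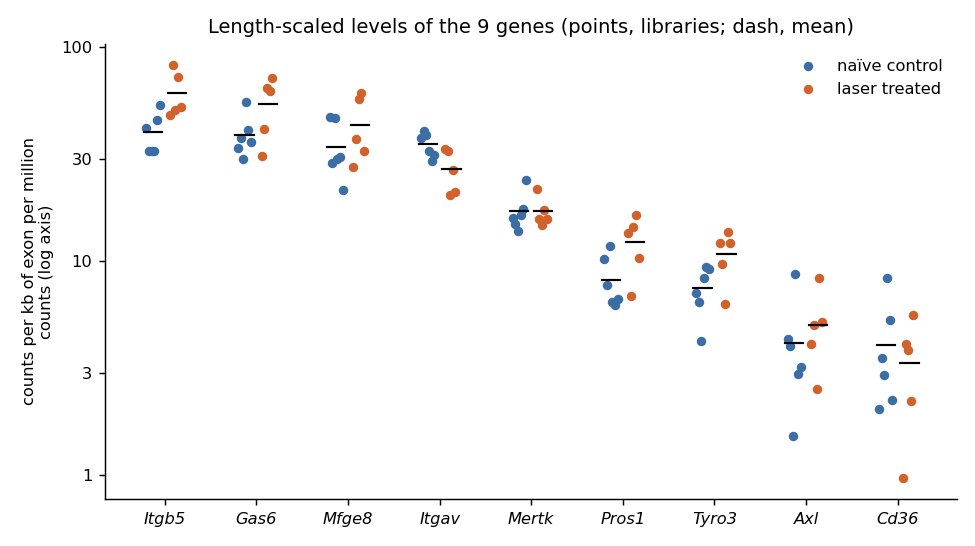
RPKM of each member (vertical log axis), with 1 point per library for naïve control (blue) and laser treated (orange) and a dash at each group mean, ordered by the mean of all 11 libraries. Itgb5 (49.8 RPKM) to Itgav (31.4 RPKM) form an overlapping upper band, Mertk (17.1 RPKM) stands between, and Axl and Cd36 spread most within their groups.

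The deposited transcript files hold only transcripts of 1 exon, so a gene appears as separate covered stretches. Itgb5 had 5 to 6 stretches inside exons in every library, and 5 exon blocks (overlapping exons merged) of its 18 were covered in all 11. At these 5 blocks, from the start of the gene to 111 kb into it, the laser treated mean was higher each time: 9.54 ± 4.08 against 5.04 ± 1.504 TPM at block 1, 45.6 ± 17.5 against 26.8 ± 7.8 at block 3, 63.6 ± 18.8 against 38.6 ± 11.1 at block 4, 89.7 ± 27.9 against 49.0 ± 14.6 at block 12 and 68.1 ± 26.01 against 38.98 ± 11.6 at block 14 (SD, n = 5 and 6). The difference in Itgb5 was therefore seen at each of these 5 blocks, while the rest of the 18 were not covered in all 11 libraries. At blocks 1 and 12, 4 of 5 laser treated libraries exceeded every control. These blocks share libraries and are not replicates of each other.

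**Figure D5:**
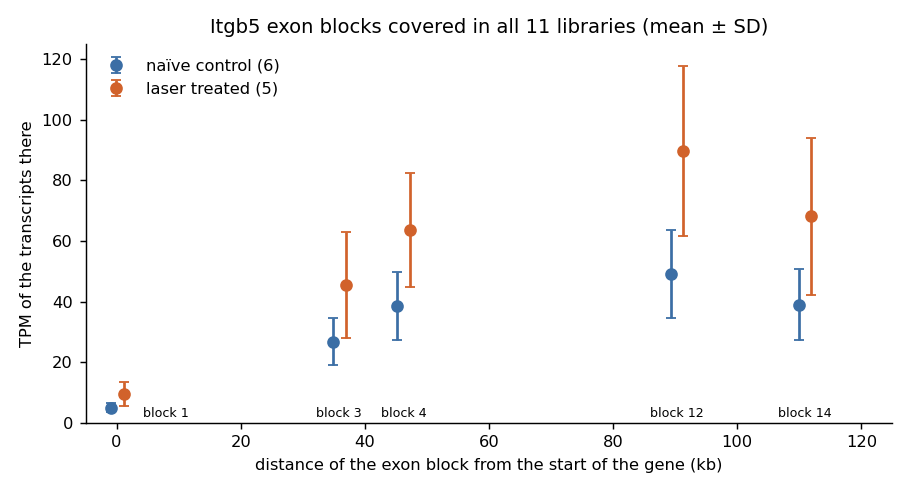
Mean TPM ± SD (vertical axis, from 0) of the single-exon transcripts over the 5 exon blocks of Itgb5 covered in all 11 libraries, against the distance of the block from the start of the gene in kb, for naïve control (blue, 6 libraries) and laser treated (orange, 5 libraries). The laser treated mean is the higher at each block, from 9.54 against 5.04 TPM at block 1 to 89.7 against 49.0 TPM at block 12.

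Most other members were covered mainly at their last exon block. Tyro3 was covered in all 11 libraries at the last of 21 blocks, with 15.7 ± 3.7 TPM in naïve control (SD, n = 6) and 24.7 ± 7.0 TPM in laser treated libraries (SD, n = 5), and Pros1 at the last of 16 blocks, with 11.9 ± 4.4 and 19.6 ± 6.6 TPM. Block 10 of Pros1, 59.6 kb from its start, was covered in 3 of 5 laser treated and 0 of 6 naïve control libraries. The same split was seen at block 9 of Gas6 and at block 6 of Itgav, a gene with a lower mean after laser. Block 13 of Gas6 was covered in 2 of 6 naïve control and 0 of 5 laser treated libraries. Such splits are therefore not particular to Pros1. The last of 32 blocks of Itgav had 219.4 ± 107.7 TPM in naïve control (SD, n = 6) and 105.4 ± 52.8 TPM in laser treated libraries (SD, n = 5). These values sum transcripts of any length. Weighted by covered bases, Itgav had 12.0 to 39.5 TPM in naïve control and 20.6 to 32.2 TPM in laser treated libraries. Naïve control library 5 was the highest at the block (401.3 TPM) and the lowest when weighted (12.0 TPM). Mertk and Itgav had transcripts inside introns in all 11 libraries, 5 to 17 for Mertk with 5.69% to 15.9% of its covered signal and 4 to 14 for Itgav with 2.67% to 16.5%, whereas Tyro3 had 0 in every library.

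Among themselves, the members did not vary as 1 block. Of 36 pairs, 18 had a Pearson r of log2 CPM above 0 and 18 below, and 1 had an adjusted permutation p under 0.05. This was Gas6 and Itgav, with r = -0.83 (permutation p = 0.00129, adjusted 0.0464) and rho = -0.79 (permutation p = 0.00537, adjusted 0.193). The r was -0.65 without the 2 libraries farthest from the median of Gas6, -0.72 among the 6 libraries of R2 and -0.77 for deviations from the group means. Gas6 is GC-rich (56.6%) and Itgav GC-poor (43.5%). With the GC balance of the libraries their r was 0.63 and -0.71 (permutation p = 0.0394 and 0.0139, adjusted 0.0853 and 0.0551 over 13 relations). The part of the GC balance in this pair was not tested. The highest r was 0.69, between Axl and Tyro3 (permutation p = 0.0181, adjusted 0.264; rho = 0.61, permutation p = 0.0510, adjusted 0.306; r 0.65 without the 2 farthest libraries). The integrin partners Itgav and Itgb5 had r = -0.46 (permutation p = 0.154, adjusted 0.504; rho = -0.65, permutation p = 0.0361, adjusted 0.306; r -0.67 without the 2 farthest libraries), which was 0.01 for deviations from the group means.

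The genes most like each member over the 11 libraries were named by the highest Pearson r of log2 CPM among 11713 genes with a mean count of at least 100. Because they are the highest of so many, the r is a description and has no p. For Itgb5 they were Lztr1 (r = 0.96), Atp6v0a1 (0.96), a subunit of the proton pump that acidifies lysosomes, and Ccdc92 (0.94), and for Itgav they were Fam120a (0.95), Azin1 (0.92) and Paics (0.90). For Mertk they were Acat2 (0.88), Bod1 (0.88) and Aldh3a2 (0.88), and for Tyro3 they were Srebf1 (0.93), a regulator of lipid synthesis, Scpep1 (0.92) and Plekhg2 (0.91). Axl was most like Lyz2 (0.93), the lysozyme of macrophages, Ace (0.90) and Serping1 (0.90). Gas6 was most like Mfap4 (0.90), Fbln1 (0.90) and Gpx3 (0.89), of which the first 2 encode extracellular matrix proteins. Pros1 was most like Ndrg1 (0.92), Bok (0.88) and 1110051M20Rik (0.85), Mfge8 like Ubtd1 (0.95), Klc1 (0.93) and Psd (0.93), and Cd36 like 2810410L24Rik (0.86), Papss2 (0.84) and Shisa2 (0.84).

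Axl moved with the markers of other cells in the tissue. Its log2 CPM had an r of 0.89 with the summed macrophage or microglia markers (permutation p = 0.00042, adjusted 0.0333; rho = 0.85, permutation p = 0.00216, adjusted 0.0709) and of 0.84 with the summed fibroblast markers (permutation p = 0.00074, adjusted 0.0333; rho = 0.83, permutation p = 0.00273, adjusted 0.0709). These were the 2 of 90 relations (10 marker lists with 9 members) with an adjusted Pearson p under 0.05. Without the 2 farthest libraries r was 0.88 and 0.66, and among the 6 libraries of R2 it was 0.91 and 0.90. All 11 macrophage markers were measured, with sums of 300.6 to 1005 CPM in naïve control and 435.6 to 1005 CPM in laser treated libraries; Emr1 and Mrc1 were at 0 in at least 1 library. The 6 fibroblast markers summed to 86.3 to 473.4 CPM and 96.9 to 425.4 CPM. Whether these cells carry the Axl RNA was not tested.

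The marker lists were set beside the groups in the same fit. Of the RPE markers, 3 of 10 were higher at an unadjusted p under 0.05 (Slc16a8, Stra6 and Krt18), where 8.24% of all genes were, and 0 lower. With the GC trend removed 0 of 10 were higher, where 3.82% of all genes were. Of the Schwann cell markers, 3 of 5 measured were higher and 0 lower, also with the GC trend removed, among them Mbp (log2 fold change 2.22, SE 0.74) and Sox10 (0.62, SE 0.16), with sums of 392.6 to 683.2 CPM in naïve control and 594.6 to 1298 CPM in laser treated libraries, while Pmp22, the marker of this list with the highest mean, had a log2 fold change of -0.05 and Prx, at 0 in 2 libraries, -1.46 (SE 1.28). These sums move with the groups beside Tyro3 (r = 0.74, permutation p = 0.00956, adjusted 0.123; rho = 0.71, permutation p = 0.0181, adjusted 0.232; r 0.68 without the 2 farthest libraries). Tyro3 also moved with the summed pericyte and smooth muscle markers (r = 0.77, permutation p = 0.00561, adjusted 0.0841; rho = 0.75, permutation p = 0.0112, adjusted 0.201; r 0.53 without the 2 farthest libraries). Its r was 0.71 with the skeletal muscle markers (permutation p = 0.0149, adjusted 0.167; rho = 0.58, permutation p = 0.0661, adjusted 0.446), and was 0.21 without the 2 farthest libraries. With the macrophage or microglia markers its r was 0.65 (permutation p = 0.0291, adjusted 0.238; rho = 0.50, permutation p = 0.122, adjusted 0.550), and was 0.39 without the 2 farthest libraries. The part of these cell types in the difference of Tyro3 was not tested. Of the blood markers 1 of 4 measured was lower (Hbb-b1), where 7.68% of all genes were, with sums of 48.1 to 326.3 CPM and 37.2 to 159.1 CPM. With the GC trend removed 3 of these 4 were lower, where 4.51% of all genes were, and their median log2 fold change was -1.17. No marker (0) of the photoreceptor, macrophage or microglia, endothelium, fibroblast, pericyte and smooth muscle, melanocyte or skeletal muscle lists passed in either direction, nor did either of the 2 fat cell markers measured of 6. Lyz2, Plvap, Plin4, Dcn, Acta2, Dct, Hba-a1 and Acta1, markers with the highest means of their lists, had log2 fold changes of 0.23, 0.53, 0.12, -0.07, 0.25, -0.09, -0.86 and 0.47.

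Other genes of the uptake pathway were read from 4 lists, where 8.24% of all genes were higher and 7.68% lower at an unadjusted p under 0.05. Of other receptors, signals and bridging molecules that promote or restrain the uptake of dying cells and debris, 20 of 22 were measured. Of these, 3 were higher and 0 lower, and the median log2 fold change was 0.13 beside -0.02 for all genes. The 3 were Scarb1 (0.42, SE 0.14), a lipoprotein receptor, Sirpa (0.40, SE 0.14), the inhibitory receptor for the Cd47 signal, and Calr (0.36, SE 0.16), calreticulin. Lrp1, the partner receptor of Calr, had 0.39 (SE 0.19, adjusted p = 0.340, edgeR). Scarb1 and Calr kept an unadjusted p under 0.05 with the GC trend removed, where 3.82% of all genes were higher and 4.51% lower. All 5 further ligands and sheddases of Mertk were measured, and 0 passed in either direction; Tub and Tulp1 had log2 fold changes of -0.64 (SE 0.54) and -0.08 (SE 0.50), and Adam10 and Adam17, proteases of the cell surface, 0.10 (SE 0.21) and 0.05 (SE 0.25).

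Of 23 genes of internalisation, 4 were higher and 4 lower, and their median log2 fold change was -0.06. Elmo2 (0.58, SE 0.16), a partner of the Rac activator Dock1, and Rhog (0.59, SE 0.18), a small GTPase upstream of it, were higher, and the actin regulator Wasl (-0.50, SE 0.16) and the kinase subunit Pik3ca (-0.66, SE 0.23) were lower. The latter pair is GC-poor and the former pair GC-rich. With the GC trend removed, 1 of the 23 (Elmo2, 0.41, unadjusted p = 0.0141, edgeR) was higher, where 3.82% of all genes were, and 0 lower, where 4.51% were. Of 26 genes of phagosome transport and digestion, 20 had a log2 fold change above 0, where 48.5% of all genes did. Of the 26, 3 were higher and 0 lower, and the median was 0.07. Ctsd, the lysosomal protease cathepsin D, had 6733 ± 1291 CPM in naïve control (SD, n = 6) and 9291 ± 1245 CPM in laser treated libraries (SD, n = 5), with a log2 fold change of 0.46 (SE 0.14, unadjusted p = 0.00624, adjusted p = 0.181, edgeR). Atg7, an autophagy enzyme also used in uptake of outer segments, had 0.53 (SE 0.21), Myo7a, the motor that carries phagosomes in the RPE, 0.48 (SE 0.22), and Rab7, a GTPase of late phagosomes, 0.29 (SE 0.14, adjusted p = 0.340). With the GC trend removed, the calls of all 3 higher genes ended: the log2 fold change was 0.23 for Ctsd (unadjusted p = 0.0924, edgeR), 0.38 for Atg7 (unadjusted p = 0.0766) and 0.23 for Myo7a (unadjusted p = 0.274). In that fit 4 other genes of the 26 were higher, where 3.82% of all genes were, and 0 lower, where 4.51% were. The 4 were Rab7 (0.33), Rab27a (0.33), Kif5b (0.37) and Becn1 (0.54). None of the genes (0) of these 4 lists had an adjusted p under 0.05 in edgeR, nor did any of the markers.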

How the data were processed

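RPE/choroid RNA of 6 naïve control and 5 laser treated C57BL/6J mice was pre-amplified with a SmartSeq v4 kit and sequenced. The authors deposited raw read counts of 14602 genes in 11 libraries. Per the submitters' processing notes, the tools were bcl2fastq 2.18.0.12, Trim Galore, STAR 2.5.3a, featureCounts 1.5.3, StringTie 1.3.3 and edgeR 3.22.3, with builds mm10 and GRCm38. The authors also deposited log2 fold changes, p-values and a score (F statistic) of their own comparison, which were not used, and transcript files with coverage, FPKM and TPM, of which TPM was summed per gene.

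Counts were tested with edgeR 4.0.16 in R 4.3.3 (quasi-likelihood test with TMM scaling and robust estimation; filterByExpr took out 0 genes; Benjamini-Hochberg adjustment over 14602 genes at 0.05). Ratios used exact two-sided permutation tests over all 462 splits, and correlations 100000 permutations (Python 3.11.15, numpy 2.4.6, scipy 1.17.1). GENCODE M21 gave exon length and the GC content of the longest transcript for 97.6% of the genes. Total counts were 25700881 to 38755994, and the SE gives the precision at this depth.

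Alternatives were DESeq2 1.42.0, upper quartile normalization, a minimum of 10 counts, no filter, no robust estimation, limma 3.58.1 (voom with quality weights; limma-trend on log2 of TPM plus 1 or 0.1), a loess trend on GC content (span 0.3) taken out, a replicate block with and without it, the file label as a covariate, and each library left out. Leaving out 2 libraries together, and the GC balance of each library, were added after seeing the data. The genes named are the 9 members, per pathway list the 4 with the smallest p, per member the 3 most alike, and per marker list the one with the highest mean count; marker and list genes named beyond these were chosen after their values were seen, and some markers are not reported here. The members and lists were chosen with earlier results of these data known. Pathway lists were 4, and marker lists were RPE, photoreceptor, macrophage or microglia, endothelium, fat cell, fibroblast, pericyte and smooth muscle, Schwann cell, melanocyte, blood and skeletal muscle. No libraries were identical. In simulated data of 14361 genes with 200 changed 4-fold, edgeR called 67% of the changed genes. Smaller changes, such as the 1.54-fold difference of Itgb5, and a GC balance that differs between the groups were not simulated. The share called therefore does not apply to differences of the members' size.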

Additional observations from a re-analysis of the deposited data

Results flagged for a closer look

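Each member's CPM and each ratio was checked within each treatment group for a single library that stood away from the rest. This was found in 2 of 26 checks, and chance alone is set to give it in about 5%. For Mertk, naïve control library 6 had 104.2 CPM and the remaining 5 controls had 60.2 to 76.4 CPM. For the Itgb5 to Itgav ratio, laser treated library 1 had 0.477 and the remaining 4 had 0.825 to 0.902.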

How the results depend on the processing

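Of the 24 other settings, 0 of 9 members passed an adjusted p of 0.05 in 23, and DESeq2 gave 1 (Itgb5), where 6.68% of the genes with an adjusted p passed. The number with an unadjusted p under 0.05, 5 in the report, was 3 with limma voom (17.9% of all genes), 2 with the GC trend removed (8.33%), 2 with the GC trend removed and the replicate block (10.7%), 1 without naïve control library 6 and laser treated library 5 (20.3%), and 2 to 5 with 1 library left out (11.5% to 19.1%). The replicate numbers did not pair the samples: the correlations of deviations from the group means were -0.01, 0.12, 0.28, -0.01 and -0.01, 2 of 5 laser treated libraries correlated best with their own number, and under the replicate block 3 members had an unadjusted p under 0.05 (17.4% of all genes) and 0 an adjusted one; naïve control library 6 has no partner there.

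Mertk, at -0.00, turned to 0.0076 with upper quartile normalization, 0.11 with the replicate block, 0.064 with the GC trend removed, 0.19 with both, 0.00085 with limma voom, 0.15 without naïve control library 6 and laser treated library 5, and ran from -0.10 to 0.10 with 1 library left out (0.10 without naïve control library 6, and 0.03, 0.05 and 0.02 without laser treated library 2, 3 and 5). Cd36 turned to 0.10 with the GC trend removed and ran from -0.55 to 0.047 (without naïve control library 4) with 1 library left out, and Mfge8 turned to -0.086 with the GC trend and the block. DESeq2 gave no adjusted p for Cd36.

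The log2 difference of the Itgb5 to Itgav ratio ran from 0.93 to 1.19 with 1 library left out (exact p 0.00952 to 0.0238), that of Mertk to Tyro3 from -0.66 to -0.43 (p 0.00952 to 0.0667), that of Mertk to Axl from -0.63 to -0.17 and that of Gas6 to Pros1 from -0.32 to 0.10 (0.04 without naïve control library 4, 0.10 without laser treated library 1); Gas6 to Pros1 was 0.11 within R1. Causes were not tested. The counts of all genes with an unadjusted p under 0.05 were 2325 in the report, 1217 with the GC trend removed, and 2963 without naïve control library 6 and laser treated library 5, where 389 passed an adjusted p of 0.05 against 0; DESeq2 gave 502 adjusted calls, limma voom 1 and the minimum of 10 counts 2.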

Other observations

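The remaining calls among the genes of internalisation, named after their values were seen, were in cytoskeletal signalling and actin assembly. The adaptor Bcar1 and the kinase Src, which act downstream of integrins, had log2 fold changes of 0.49 (SE 0.19, adjusted p = 0.244, edgeR) and 0.46 (SE 0.20, adjusted p = 0.298), and the actin assembly subunit Arpc2 and the small GTPase Cdc42 had -0.35 (SE 0.13, adjusted p = 0.225) and -0.23 (SE 0.10, adjusted p = 0.302). With the GC trend removed, none of these 4 kept an unadjusted p under 0.05.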
